A study of Homo sapiens with 32 samples.

Results

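The prodrug experiment compared PC-3 cells under cyclophosphamide with PC-3 cells under vehicle on 16 of the 32 single-colour bead arrays of the series. PC-3 is an established human prostate adenocarcinoma line, grown here in monolayer, that lacks functional p53. Flasks received vehicle (arrays labelled untreated) or cyclophosphamide, which the labels call inactive, for 10 h (3 vehicle and 3 cyclophosphamide arrays), 24 h (3 and 3) or 48 h (2 and 2). Each cyclophosphamide array was paired with the vehicle array of the same time that held the same place in the order of the closing letters of the titles, which gave 8 pairs. The other 16 arrays belong to a separate experiment with its own vehicle arrays, in which cells received active 4-hydroperoxycyclophosphamide. A dose of 5.5 µM stands beside cyclophosphamide in the treatment protocol but beside the active compound alone in the design text, so the dose of the prodrug is uncertain. No label states that arrays of one group came from separate flasks, so p-values measure the spread between arrays, which may be technical.

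Cyclophosphamide is a nitrogen mustard prodrug. Cytochrome P450 enzymes, mainly of the liver, hydroxylate its ring, and the product breaks down to phosphoramide mustard, which crosslinks DNA, and acrolein, which binds thiols. The hydroperoxy derivative yields the hydroxylated form in culture medium without an enzyme. Much of what is described below concerns the integrated stress response: kinases that sense amino acid lack, misfolded protein in the endoplasmic reticulum, haem lack or double-stranded RNA phosphorylate the initiation factor eIF2, general translation falls, and the transcription factor ATF4 is translated and turns on genes for amino acid synthesis, amino acid import and stress signalling.

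The arrays were of similar brightness, with upper-quartile raw intensities of 274.6 to 416.2, and the cyclophosphamide array was the brighter one in 4 of the 8 pairs. All 10 epithelial and PC-3 markers were bright, KRT19 at the 98.1th and EPCAM at the 96.8th percentile of the named genes, whereas KLK3 (14.4th), COL1A2 (3.28th), CD14 (9.41th) and CDH5 (8.78th) were near the bottom. Other markers of these types were brighter: TMPRSS2 (prostate) was at the 59.7th percentile, ACTA2 and COL1A1 (fibroblasts) at the 60.7th and 49.1th, CD68 (macrophages) at the 87.8th and PECAM1 (endothelium) at the 50.3th. Of the other cell types' markers, 3 of 10 for fibroblasts, 3 of 8 for immune cells and 2 of 6 for endothelium were bright enough to be tested. Of these 0 were called, as were 0 of the 10 epithelial markers. Over all genes 0.602% were called, so 0 in lists this short says little. Among the epithelial markers, ITGB4 was at 0.35 (limma, adjusted p = 0.0594) and CAV1 at -0.21 (adjusted p = 0.0734), each with the same sign in 8 of 8 pairs. The lists averaged 6.37 to 6.53 in vehicle and 6.29 to 6.56 in cyclophosphamide arrays for fibroblasts, 6.80 to 6.96 and 6.78 to 6.95 for immune cells, and 6.36 to 6.62 and 6.37 to 6.55 for endothelium (log2 intensity). Both arrays of the third pair at 10 h lay nearer to the 24 h arrays, and both of the third pair at 24 h nearer to the 10 h arrays, along the axis that separates these times. The members of each such pair lay on the same side, so a difference within a pair does not depend on its time label, but a value for 10 h or 24 h does. The cyclophosphamide array of the third pair at 10 h also stood apart from the other 15, at a root mean square distance of 0.314 from the gene means against 0.140 to 0.211. It held a difference of -5.86 for ACTG1, -3.08 for PGAM1 and -2.63 for ALYREF (log2), genes singled out after their values were seen, and none of the 3 passed the test. The called genes that did not pass without these pairs are listed with the average effect.

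Averaged over the 8 pairs, cyclophosphamide was accompanied by small changes of a few genes, the largest of them rises of stress response genes. Of 10623 genes tested, 64 (0.602%) passed an adjusted p of 0.05 (limma, pairs as blocks, Benjamini-Hochberg): 38 rose (0.358%) and 26 fell (0.245%). ASNS had the largest rise, 1.61-fold, and CXCL6 the largest fall, 1.37-fold. The median size of the 64 changes was 0.32 on the log2 scale, and 2 of the 64 exceeded 1.5-fold. The direction was the same in all 8 pairs for 58 of the 64 genes and in 7 pairs for the other 6. The genes were called from these same differences, so their uniform direction follows in part from that choice. Of all genes tested, 387 (3.64%) had the same sign in all 8 pairs, 175 (1.65%) higher and 212 (2%) lower. Signals are per amount of RNA from a whole culture, in which fewer cells of a kind and less RNA per cell cannot be told apart.

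**Figure D1:**
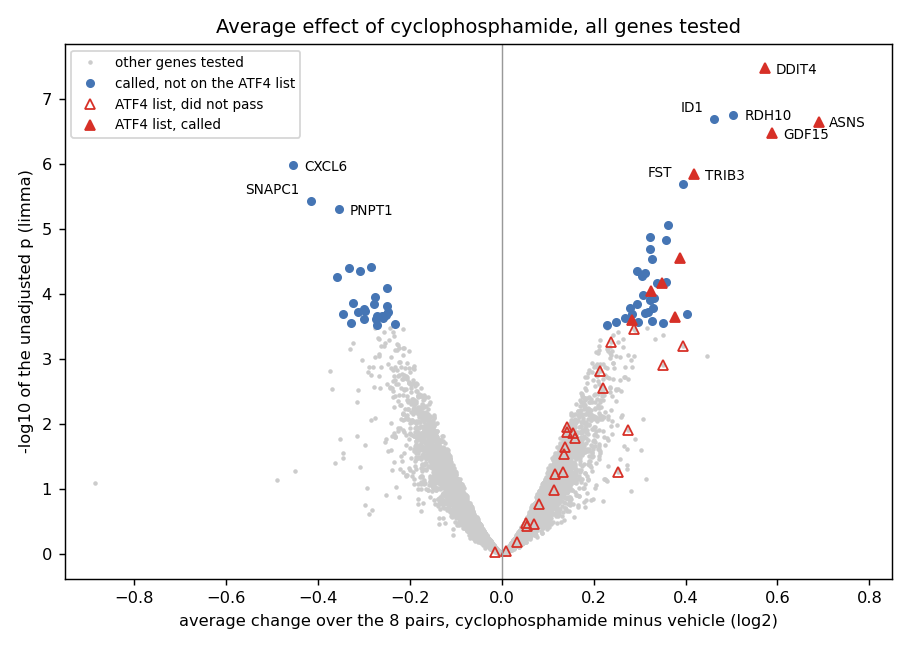
Each point is a gene, with its average change over the 8 pairs (x axis, log2 of cyclophosphamide minus vehicle) and the negative log10 of its unadjusted p (y axis). Triangles mark the 33 measured genes of the ATF4 list, of which 32 lie to the right of 0 and 9 were called.

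The number of calls depended on the pairing and on which pairs entered. With the same arrays in a model without the replicate block, 0 genes passed and 493 had an unadjusted p under 0.05, against 1453 with the pairs (13.7% of all genes, 6.86% higher and 6.82% lower). Leaving out 1 pair at a time left between 14 genes (without the third pair at 24 h) and 109 (without the third pair at 10 h, 62 of them among the 64). Without both doubtful pairs, 30 genes passed, 26 of them among the 64, and all 64 kept their direction. The remaining pairs are among those from which the 64 were called, so the kept direction is not independent evidence. The 38 called genes that did not pass then were ATF4, PCK2, STC2, CYP1B1, ITGA2, WIPI1, GABARAPL1, TGIF1, CEBPD, CREB3L2, SOX21, HBP1, SPG11, PHLDA3, AKR1C3, PLAU, SLC20A1, BBS2 and H2BC21, which were higher, and CXCL1, SCG5, HSPA1B, CDCA7, NASP, NUP98, ABCA1, SYNCRIP, SEC62, RBM12, CLDN11, DPYSL4, OXTR, NMT2, LPXN, RPS7, PLPPR5, RPL29 and FKBP5, which were lower. Their adjusted p without these pairs ran from 0.0509 for CXCL1 to 0.144 for CDCA7. Of the 64 genes, 11 passed in every setting tried that kept the pairs: ASNS, GDF15, DDIT4, TRIB3, RDH10, ID1, FST and SMIM14 rose, and CXCL6, SNAPC1 and PNPT1 fell. Each of the other 53 called genes failed in at least 1 of these settings.

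Genes of the integrated stress response made up the largest named group among the rises. Of 33 measured members of the ATF4 list, 9 rose (27.3%, against 0.358% of all genes) and 0 fell, and the mean change was above 0 for 32, whereas 5260 of the 10623 genes tested were above 0. The median change of the list was 0.21 (log2), beside -0.0009 over all genes, and the list's median within a pair ran from 0.09 (second pair at 24 h) to 0.42 (second pair at 10 h). ATF4 itself rose by 0.28 (SE 0.06, n = 8 pairs, adjusted p = 0.0473). Without both doubtful pairs 6 of the 33 members passed instead of 9: ATF4 was at 0.21 (adjusted p = 0.127), PCK2 at 0.32 (adjusted p = 0.127) and STC2 at 0.28 (adjusted p = 0.0989). The list was drawn up with earlier results of these data known, so its direction is not independent evidence.

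Asparagine synthetase, ASNS, makes asparagine from aspartate and glutamine and is a classical ATF4 target. Its log2 intensity was 9.83 to 10.74 (median 10.02) on the 8 vehicle arrays and 10.18 to 11.70 (median 10.65) on the 8 cyclophosphamide arrays. The groups overlapped, with 3 cyclophosphamide arrays above the brightest vehicle array, but within every pair the cyclophosphamide array was the brighter one. The differences were 0.67, 1.12 and 0.83 at 10 h, 0.30, 0.30 and 0.91 at 24 h, and 0.80 and 0.58 at 48 h, a mean of 0.69 (SE 0.08, n = 8 pairs, adjusted p = 0.000593). PCK2, the mitochondrial phosphoenolpyruvate carboxykinase, rose by 0.38 (adjusted p = 0.0458), although a second, dimmer probe of PCK2 gave 0.10. The serine and cysteine enzymes did not pass: PHGDH, the entry enzyme of serine synthesis, was at 0.29 (adjusted p = 0.0521), PSAT1 at 0.25 (adjusted p = 0.376), PSPH at 0.11 (adjusted p = 0.466), CBS at 0.35 (adjusted p = 0.0953) and CTH at 0.14 (adjusted p = 0.226). MTHFD2 of the mitochondrial folate cycle was at 0.21 (adjusted p = 0.101). All of these differences were above 0, from 0.11 for PSPH to 0.35 for CBS.

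Among the amino acid transporters, SLC38A2, which imports small neutral amino acids, rose by 0.39 (SE 0.07, n = 8 pairs, adjusted p = 0.0188). It was higher in 8 of 8 pairs, with differences from 0.04 to 0.69. SLC6A9, the glycine transporter, rose by 0.33 (adjusted p = 0.0333) in 7 of 8 pairs, while its second probe was at -0.08, so the probes of SLC6A9 disagree in sign. The cystine importer SLC7A11 was at 0.24 (adjusted p = 0.0679), SLC1A5 at 0.27 (adjusted p = 0.236), SLC7A1 at 0.14 (adjusted p = 0.24) and SLC1A4 at 0.15 (adjusted p = 0.24), and none of them passed. The 2 chains of the large neutral amino acid exchanger lay at 0.01 for SLC7A5 and -0.01 for SLC3A2, the latter the only one of the 33 list members below 0. NUPR1, a small stress-induced chromatin protein, was at 0.40 (adjusted p = 0.0715) and CEBPB, a partner of ATF4, at 0.22 (adjusted p = 0.133).

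GDF15, a secreted stress cytokine, had a log2 intensity of 7.63 to 9.13 (median 8.02) under vehicle and 7.96 to 9.70 (median 8.62) under cyclophosphamide. Its pair differences were 0.48, 1.10 and 0.62 at 10 h, 0.33, 0.40 and 0.57 at 24 h, and 0.53 and 0.67 at 48 h, a mean of 0.59 (SE 0.07, n = 8 pairs, adjusted p = 0.000712), and all 8 were above 0. The second pair at 10 h stood well above the others for GDF15. STC2, a secreted glycoprotein of stressed cells, rose by 0.35 (SE 0.07, n = 8 pairs, adjusted p = 0.0274).

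DDIT4, which restrains the growth kinase complex mTORC1, had the smallest p of all genes. Its vehicle arrays lay at 8.45 to 9.83 (median 8.94) and cyclophosphamide arrays at 9.31 to 10.38 (median 9.46). The differences were 0.42, 0.55 and 0.62 at 10 h, 0.36, 0.88 and 0.55 at 24 h, and 0.55 and 0.65 at 48 h, with a mean of 0.57 (SE 0.06, n = 8 pairs, adjusted p = 0.000357). The pairs thus differed by less for DDIT4 than for ASNS, with an SD of 0.16 against 0.29. TRIB3, a pseudokinase that feeds back on ATF4, lay at 9.90 to 10.89 (median 10.40) under vehicle and 10.19 to 11.50 (median 10.72) under cyclophosphamide. It was higher in all 8 pairs, by 0.33, 0.64 and 0.50 at 10 h, 0.29, 0.33 and 0.61 at 24 h, and 0.35 and 0.30 at 48 h, a mean of 0.42 (SE 0.06, n = 8 pairs, adjusted p = 0.00217). The death-linked factor DDIT3 (CHOP) was at 0.14 (adjusted p = 0.302), ATF3 at 0.12 (adjusted p = 0.384) and the eIF2 phosphatase subunit PPP1R15A at 0.14 (adjusted p = 0.286), and these 3 did not pass. The 5 genes whose 8 pair differences were most like those of DDIT4 were DEDD (Pearson r = 0.962), HSF1 (0.959), SIGIRR (0.921), C2orf66 (0.908) and PPHLN1 (0.897). They were picked as the highest correlations among all genes tested, each over only 8 pairs, and serve as a description. None of these 5 was called, with mean changes of -0.12 for HSF1 to 0.04 for SIGIRR.

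ATF4 binds, with C/EBP partners, to the C/EBP-ATF response element, searched here as TGATGNAA on both strands. The 250 bases before the RefSeq start (GRCh38.p14) are shown for the 4 members of the list with the smallest p, so that the promoters of the rises with the smallest p can be compared, with the first listed start of each gene. Capitals mark the match to the element.
DDIT4 (chr10:72273674-72273923, plus strand): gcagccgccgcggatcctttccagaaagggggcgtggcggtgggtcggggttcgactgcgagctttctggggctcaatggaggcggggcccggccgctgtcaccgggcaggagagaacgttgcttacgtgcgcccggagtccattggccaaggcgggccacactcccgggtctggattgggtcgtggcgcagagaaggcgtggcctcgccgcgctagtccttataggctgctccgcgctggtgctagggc
ASNS (chr7:97872409-97872658, minus strand): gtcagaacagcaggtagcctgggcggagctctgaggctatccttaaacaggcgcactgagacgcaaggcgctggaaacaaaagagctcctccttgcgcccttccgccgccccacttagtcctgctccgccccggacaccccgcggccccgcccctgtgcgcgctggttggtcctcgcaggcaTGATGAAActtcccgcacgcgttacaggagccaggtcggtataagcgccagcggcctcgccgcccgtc
GDF15 (chr19:18385908-18386157, plus strand): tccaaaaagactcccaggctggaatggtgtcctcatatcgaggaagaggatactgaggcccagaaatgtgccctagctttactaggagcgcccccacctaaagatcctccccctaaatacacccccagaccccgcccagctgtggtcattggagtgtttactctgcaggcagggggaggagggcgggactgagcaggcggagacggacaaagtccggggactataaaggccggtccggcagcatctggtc
TRIB3 (chr20:381045-381294, plus strand): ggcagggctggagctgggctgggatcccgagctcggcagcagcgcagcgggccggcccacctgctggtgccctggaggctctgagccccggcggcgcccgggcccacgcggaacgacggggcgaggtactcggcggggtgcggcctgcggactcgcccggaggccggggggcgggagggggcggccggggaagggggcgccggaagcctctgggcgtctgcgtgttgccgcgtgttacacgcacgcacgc
The ASNS window held 1 match, on the strand of the gene, whose first base lies 68 bases before the start. The DDIT4, GDF15 and TRIB3 windows held 0, as did those of SLC38A2 and STC2 and the window of a second ASNS start. Of 27 measured list members with a promoter in the RefSeq table, 5 held a match (18.5%): ASNS, ATF3, CEBPG, JDP2 and SLC1A5. Among the 8814 tested genes with a promoter the share was 2.46%, among all 35116 listed promoters 3.14%, and among 59 called genes 2 (3.39%), ASNS and IL7R. ASNS was thus the only called member of the list with a match in this window. A match describes letters and not binding.

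**Figure D2:**
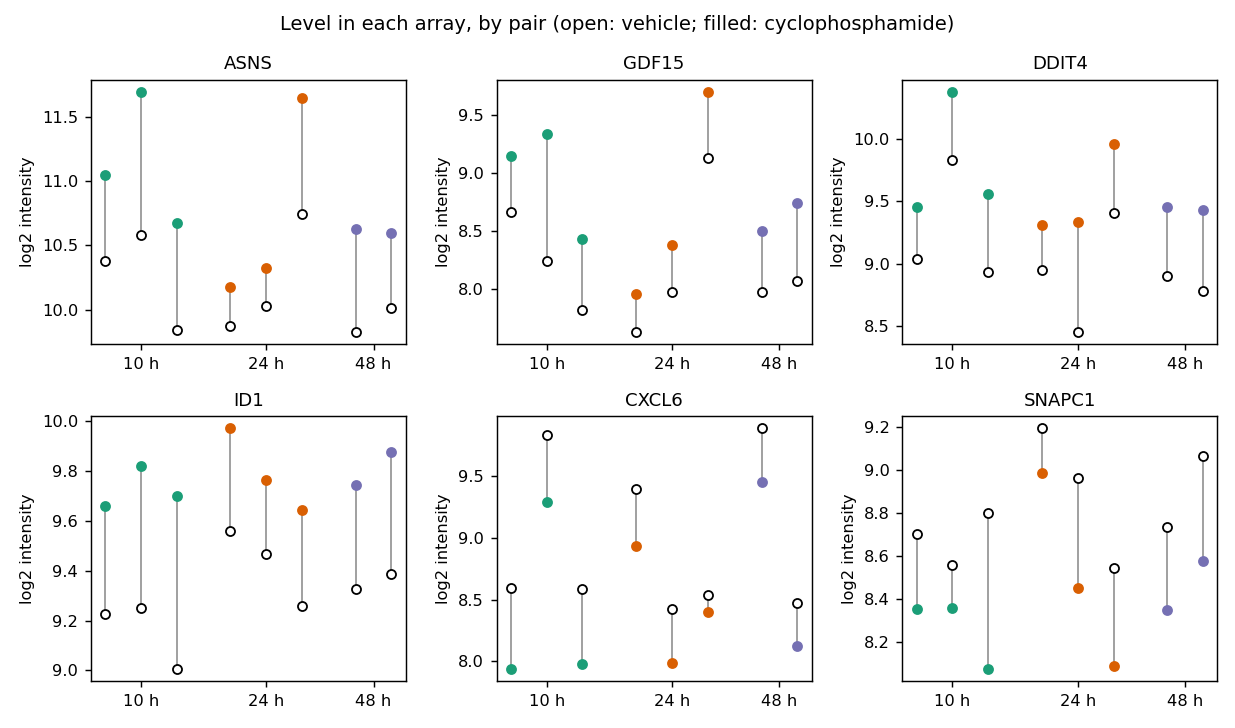
Log2 intensity (y axis) of 6 called genes in each of the 16 arrays, placed by time (x axis) and joined within a pair; open points are vehicle and filled points cyclophosphamide. The filled point lies above the open one in all 8 pairs for ASNS, GDF15, DDIT4 and ID1, and below it in all 8 for CXCL6 and SNAPC1.

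Aminoacyl-tRNA synthetases, which load amino acids onto tRNA and include further ATF4 targets, did not pass singly. Of 19 measured cytosolic enzymes 0 were called (limma) and 7 had an unadjusted p under 0.05, all higher. Over all genes, 6.86% were higher at that unadjusted p. The highest were GARS1 at 0.23 (adjusted p = 0.0953), MARS1 at 0.22 (adjusted p = 0.155) and AARS1 at 0.20 (adjusted p = 0.148). Of the 19, 15 were above 0, which became 11 of 19 under median scaling. In the endoplasmic reticulum list, DNAJB9, a co-chaperone of BiP, rose by 0.34 (SE 0.06, n = 8 pairs, adjusted p = 0.0274). It was the only one of 18 measured members to pass (5.56%, against 0.358% of all genes that rose). XBP1, the transcription factor of that branch, was at 0.25 (adjusted p = 0.0812). The lists were chosen with earlier results of these data known. In lists this short, here and below, a called gene alone lifts the share above that of all genes. Such a share is thus no independent evidence about a list.

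Outside the ATF4 list, ID1 gave the clearest separation. ID1 is a dominant-negative helix-loop-helix factor and a target of bone morphogenetic protein signalling. Its log2 intensity was 9.01 to 9.56 (median 9.29) under vehicle and 9.64 to 9.97 (median 9.75) under cyclophosphamide, and all 8 cyclophosphamide arrays lay above all 8 vehicle arrays. The pair differences were 0.43, 0.57 and 0.70 at 10 h, 0.41, 0.30 and 0.39 at 24 h, and 0.42 and 0.49 at 48 h, with a mean of 0.46 (SE 0.05, n = 8 pairs, adjusted p = 0.000593). Without the replicate block ID1 had an adjusted p of 0.0513, the smallest among the 64 genes in that model. ID1 was the only one of 9 measured BMP and ID genes to pass (11.1%, against 0.358% of all genes that rose). That share rests on ID1 alone. The other ID genes were not called, ID2 at 0.05 (adjusted p = 0.762) and ID3 at 0.11 (adjusted p = 0.383), nor did BMP2 at 0.08 (adjusted p = 0.616), BMP4 at -0.07 (adjusted p = 0.606) or SMAD6 at 0.12 (adjusted p = 0.626).

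RDH10, the retinol dehydrogenase that starts retinoic acid synthesis, lay at 9.16 to 10.01 (median 9.62) under vehicle and 9.70 to 10.46 (median 10.08) under cyclophosphamide, a rise of 0.50 (SE 0.06, n = 8 pairs, adjusted p = 0.000593). Its pair differences were 0.38, 0.28 and 0.55 at 10 h, 0.44, 0.79 and 0.45 at 24 h, and 0.52 and 0.61 at 48 h. They were above 0 in every pair, and 5 cyclophosphamide arrays exceeded the brightest vehicle array. RDH10 was the only one of 9 measured retinoid genes to pass (11.1%, against 0.358% of all genes that rose). That share rests on RDH10 alone, in a list chosen with earlier results of these data known. Of the 9, 5 were above 0, with a median of 0.03. DHRS3, which reduces retinal, was at 0.33 (adjusted p = 0.0648), while RARA was at -0.17 (adjusted p = 0.24) and CRABP2 at -0.12 (adjusted p = 0.365). FST, the activin antagonist follistatin, rose by 0.39 (SE 0.05, n = 8 pairs, adjusted p = 0.0027), and a second probe of FST gave 0.27. Its pair differences were 0.14, 0.49 and 0.52 at 10 h, 0.38, 0.53 and 0.44 at 24 h, and 0.38 and 0.28 at 48 h. SMIM14, a small membrane protein, rose by 0.36 (SE 0.06, n = 8 pairs, adjusted p = 0.00834), with pair differences of 0.26, 0.58 and 0.18 at 10 h, 0.18, 0.38 and 0.45 at 24 h, and 0.48 and 0.39 at 48 h. Both genes were higher in 8 of 8 pairs.

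MT2A, a metallothionein that binds zinc and copper, lay at 12.23 to 12.71 (median 12.34) under vehicle and 12.48 to 13.04 (median 12.80) under cyclophosphamide. It rose by 0.36 (SE 0.06, n = 8 pairs, adjusted p = 0.0118). MT2A was the only one of 6 measured metallothionein and zinc genes to pass (16.7%, against 0.358% of all genes that rose). That share rests on MT2A alone. MT1X, a paralog of near-identical sequence whose signal a probe may share, was at 0.26 (adjusted p = 0.0636), MT1G at 0.14 (adjusted p = 0.302) and MT1F at 0.11 (adjusted p = 0.354), and the zinc exporter SLC30A1 at -0.0029. CYP1B1, a P450 enzyme induced through the aryl hydrocarbon receptor, rose by 0.36 (SE 0.07, n = 8 pairs, adjusted p = 0.0274). It was the only one called of 6 measured genes of its list (16.7%, against 0.358% of all genes that rose). That share rests on CYP1B1 alone. All 6 were above 0 (5 of 6 under median scaling). CYP1B1 was at 0.31 (adjusted p = 0.0887) without both doubtful pairs. The receptor AHR was at 0.24 (adjusted p = 0.0848) and CYP1A1 at 0.12 (adjusted p = 0.472).

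Further rises included ITGA2, the collagen-binding integrin subunit, at 0.40 (adjusted p = 0.0458), the autophagy receptor SQSTM1 at 0.35 (adjusted p = 0.0488), and the autophagy proteins WIPI1 at 0.33 (adjusted p = 0.0454) and GABARAPL1 at 0.31 (adjusted p = 0.0458). Leaving out both doubtful pairs, WIPI1 was at 0.31 (adjusted p = 0.0887) and GABARAPL1 at 0.28 (adjusted p = 0.118). ITGA2 rested in part on the third pair at 10 h, whose difference was 1.06: without both doubtful pairs its change was 0.30 (adjusted p = 0.0717). SQSTM1 was lower in that pair, at -0.15, and without both pairs rose by 0.45 (adjusted p = 0.00854). The transcription factors BCL6 at 0.32, ZBTB14 at 0.33, TGIF1 at 0.33 (second probe 0.11), CEBPD at 0.32, CREB3L2 at 0.31, SOX21 at 0.30 and HBP1 at 0.23 rose as well. So did PNPLA6, ERRFI1, SPG11, CLIP2, PHLDA3, AKR1C3, PLAU, SLC20A1, ANG, BBS2 and H2BC21, by 0.25 (BBS2) to 0.33 (PHLDA3). A second probe of CLIP2 gave 0.02 against 0.31.

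**Figure D3:**
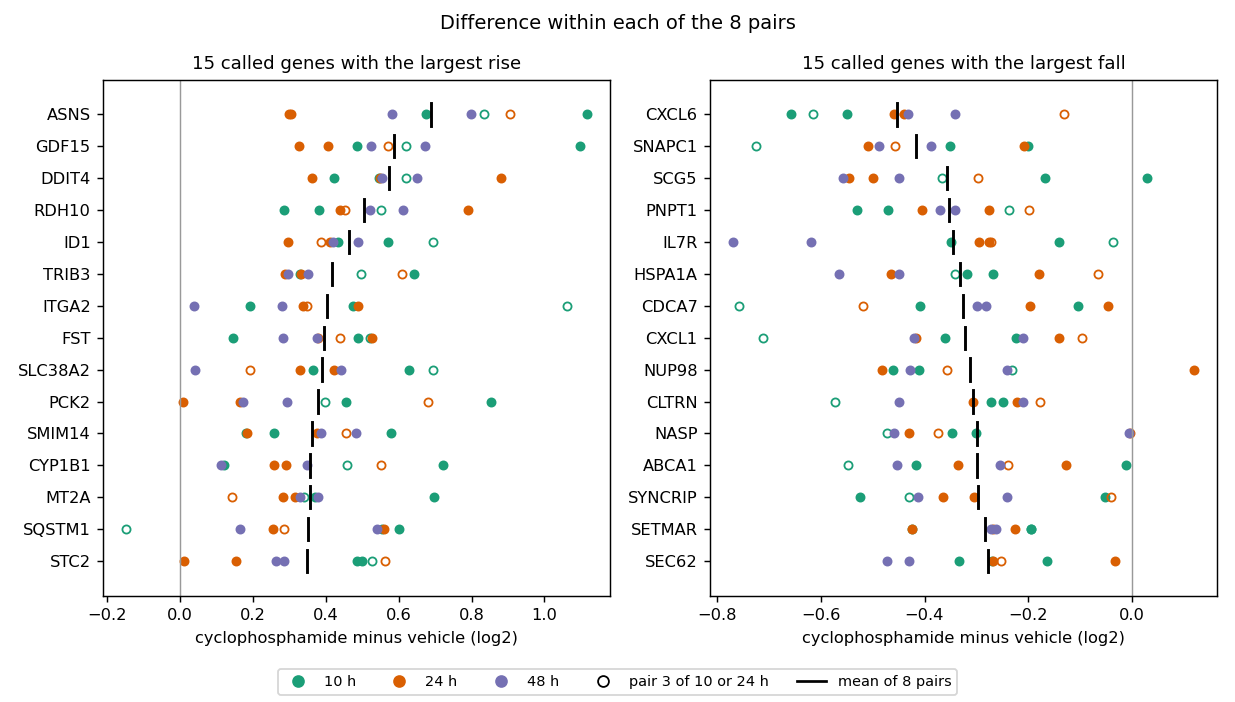
Difference between the cyclophosphamide and the vehicle array of each pair (x axis, log2) for the 15 called genes with the largest rise and the 15 with the largest fall. Colours give the time, open points the third pairs of 10 h and 24 h, and bars the mean of 8 pairs; SQSTM1, SCG5 and NUP98 each have 1 pair on the other side of 0.

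Among the genes that fell, the chemokines CXCL6 and CXCL1, which attract neutrophils, stood with the NF-kB targets. CXCL6 lay at 8.42 to 9.89 (median 8.59) under vehicle and 7.94 to 9.46 (median 8.26) under cyclophosphamide, where 5 arrays were below the dimmest vehicle array. Its pair differences were -0.66, -0.55 and -0.61 at 10 h, -0.46, -0.44 and -0.13 at 24 h, and -0.43 and -0.34 at 48 h, with a mean of -0.45 (SE 0.06, n = 8 pairs, adjusted p = 0.00186). CXCL1 was lower in all 8 pairs, with a mean of -0.32 (SE 0.07, n = 8 pairs, adjusted p = 0.0428). These were 2 of 16 measured members of the list (12.5%, against 0.245% of all genes). Without both doubtful pairs CXCL1 was at -0.30 (adjusted p = 0.0509), which leaves 1. The others did not pass, NFKB1 being at -0.18 (adjusted p = 0.238) and IL6 at 0.13 (adjusted p = 0.36), and 10 of the 16 were above 0. The interleukin-7 receptor chain IL7R was the only one of 13 measured cytokine receptors to pass (7.69%, against 0.245% of all genes that fell). That share rests on IL7R alone. IL7R was at -0.34 (SE 0.07, n = 8 pairs, adjusted p = 0.0458). Its signal was low, with a median of 7.31 under vehicle and 6.92 under cyclophosphamide, where 4 arrays lay below all vehicle arrays. Its pair differences were -0.35, -0.14 and -0.04 at 10 h, -0.30, -0.27 and -0.27 at 24 h, and -0.62 and -0.77 at 48 h.

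SNAPC1, a subunit of the complex that starts transcription of small nuclear RNA genes, lay at 8.55 to 9.20 (median 8.77) under vehicle and 8.08 to 8.99 (median 8.36) under cyclophosphamide. It fell in all 8 pairs, with differences of -0.35, -0.20 and -0.72 at 10 h, -0.21, -0.51 and -0.46 at 24 h, and -0.39 and -0.49 at 48 h, and a mean of -0.42 (SE 0.06, n = 8 pairs, adjusted p = 0.00434). PNPT1, the mitochondrial polynucleotide phosphorylase, lay at 7.38 to 8.07 (median 7.66) under vehicle and 7.11 to 7.70 (median 7.37) under cyclophosphamide. Its pair differences were -0.53, -0.47 and -0.24 at 10 h, -0.40, -0.28 and -0.20 at 24 h, and -0.34 and -0.37 at 48 h, all below 0, with a mean of -0.35 (SE 0.05, n = 8 pairs, adjusted p = 0.00527). It stood on the interferon list, of whose 19 measured members it was the only one called (5.26%, against 0.245% of all genes that fell). OAS1 there was at 0.20 (adjusted p = 0.226). SCG5, a neuroendocrine chaperone of the secretory pathway, changed by -0.36 (adjusted p = 0.0253), with 7 of 8 pairs lower, and without both doubtful pairs was at -0.37 (adjusted p = 0.0576).

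Of 15 measured heat shock genes, 2 fell (13.3%, against 0.245% of all genes) and 0 rose. These were HSPA1A at -0.33 (SE 0.06, n = 8 pairs, adjusted p = 0.0229) and HSPA1B at -0.25 (SE 0.05, n = 8 pairs, adjusted p = 0.0317), near-identical paralogs that probes may not tell apart. Without both doubtful pairs 1 of the 15 passed, as HSPA1B was then at -0.26 (adjusted p = 0.0632). HSPA1A lay at 10.96 to 11.80 (median 11.33) under vehicle and 10.64 to 11.62 (median 10.92) under cyclophosphamide. All 15 members of the list had a mean below 0, also under median scaling and in the authors' log2 values, with a median of -0.13. HSPB1 was at -0.21 (adjusted p = 0.113) and HSPA4L at -0.16 (adjusted p = 0.222), and neither passed.

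Of 29 measured genes of the G1/S transition and DNA replication 0 passed (limma), 16 having an unadjusted p under 0.05 with lower values. The median was -0.16, with 28 of the 29 below 0, and by pair it ran from -0.04 to -0.23. MCM6, a subunit of the replicative helicase, was at -0.24 (adjusted p = 0.0552), MCM4 at -0.27 (adjusted p = 0.0812) and GINS2 at -0.27 (adjusted p = 0.0827). Outside that list, CDCA7, a zinc-finger protein of cycling cells, fell, at -0.33 (adjusted p = 0.0488), as did the histone chaperone NASP at -0.30 (adjusted p = 0.0458). Without both doubtful pairs they were at -0.22 (adjusted p = 0.144) and -0.26 (adjusted p = 0.142). Of 15 measured histone genes 1 passed (6.67%, against 0.358% of all genes that rose). This was H2BC21, which was at 0.23 (adjusted p = 0.107) without those pairs. Over all genes, 6.82% were lower at that unadjusted p and 13.7% differed in either direction, beside which the nominal counts of this and the next lists stand. Of 30 measured genes of G2 and mitosis 0 passed, 5 having an unadjusted p under 0.05, all lower, with a median of -0.06. Ribosome biogenesis genes had 0 of 22 called, 6 with an unadjusted p under 0.05, all lower, a median of -0.09 and 2 members above 0. The other genes that fell were NUP98, CLTRN, ABCA1, SYNCRIP, SETMAR, SEC62, RBM12, CLDN11, DPYSL4, OXTR, NMT2, LPXN, RPS7, PLPPR5, RPL29 and FKBP5, by -0.31 (NUP98) to -0.23 (RPL29). RPS7 and RPL29 have many pseudogene copies, which a probe may not tell apart. NUP98 had a second probe at -0.08.

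**Figure D4:**
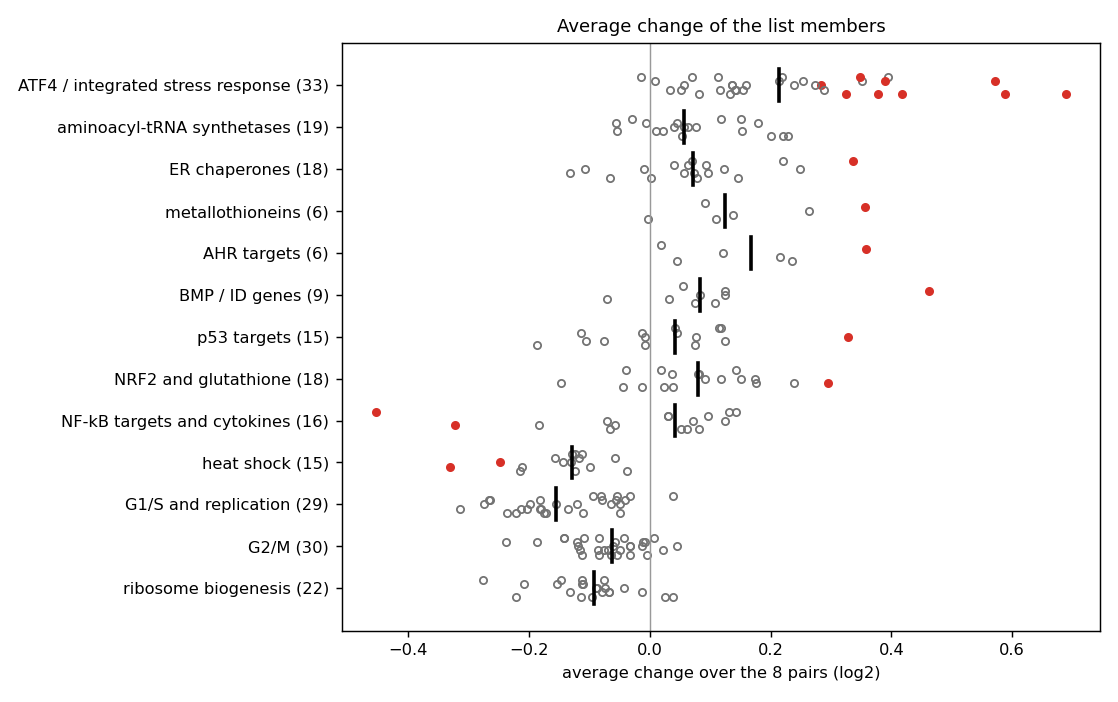
Average change over the 8 pairs (x axis, log2) of each measured member of 13 gene lists, with the number of members in brackets. Filled points passed the test and bars are list medians: 0.21 for the ATF4 list, -0.13 for heat shock and -0.16 for G1/S and replication.

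Genes that handle the drug or answer DNA damage were tested as 5 lists. Of 14 P450, partner and regulator genes listed for the activation of cyclophosphamide, 10 had a named probe, and 3 were bright enough to be tested. These were POR at 0.08 (adjusted p = 0.634), CYB5A at -0.06 (adjusted p = 0.639) and CYP2J2 at -0.02 (adjusted p = 0.937). Of them 0 were called, with 0 at an unadjusted p under 0.05. Of 15 measured aldehyde dehydrogenases, glutathione transferases and transporters that clear it, 0 were called and 4 had an unadjusted p under 0.05. ALDH3A1, which oxidises the aldophosphamide intermediate, was at 0.21 (adjusted p = 0.203). Of 15 measured p53 target genes 1 rose, PHLDA3, at 0.33 (adjusted p = 0.0473), while CDKN1A was at 0.11 (adjusted p = 0.486). PHLDA3 was at 0.25 (adjusted p = 0.0793) without both doubtful pairs. In the list of crosslink and alkylation repair 0 of 16 passed, and 4 had an unadjusted p under 0.05. Of 18 NRF2 and glutathione genes, AKR1C3, which reduces carbonyls, was the only one called, at 0.30 (adjusted p = 0.0428), or 0.30 (adjusted p = 0.0647) without those pairs, and HMOX1, the haem oxygenase, was at 0.12 (adjusted p = 0.554). At an unadjusted p under 0.05, 6 of the NRF2 and glutathione genes were higher and 0 lower, and 2 of the p53 targets were higher and 1 lower. For comparison, 0.602% of all genes were called. At that unadjusted p 13.7% of all genes differed, 6.86% higher and 6.82% lower. Hypoxia and glycolysis genes (19 measured), cholesterol synthesis genes (15) and immediate early genes (12) had 0 called, with 7, 4 and 1 at an unadjusted p under 0.05.

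By time, the effect of cyclophosphamide passed for 4 genes at 10 h (0.0377%), all among the 64: ASNS at 0.87, GDF15 at 0.73, ID1 at 0.57 and CXCL6 at -0.61, each with an adjusted p of 0.0400 (limma). At 24 h 0 genes passed (0%) and 395 had an unadjusted p under 0.05. The smallest p at 24 h belonged to DDIT4 at 0.60, RDH10 at 0.56 and SIRT4 at 0.43, the first 2 with an adjusted p of 0.265. At 48 h 0 genes passed (0%) and 425 had an unadjusted p under 0.05. IL7R was foremost there, at -0.69 (adjusted p = 0.211), against -0.18 at 10 h and -0.28 at 24 h. At 10 h 1300 genes had an unadjusted p under 0.05. Without the doubtful pairs 2 genes passed at 10 h, 1 of them among the 4, and when 1 pair of any time was left out 0 or 1 passed.

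A test of whether the effect differed between times passed for 0 genes (0%), with 282 at an unadjusted p under 0.05 and a smallest adjusted p of 0.9998 (moderated F). The 3 genes with the smallest p in that test were JSRP1, at -0.40, 0.26 and 0.06 at 10, 24 and 48 h, TINAGL1, at 0.43, -0.16 and -0.28, and OPRL1, at 0.28, -0.37 and 0.13. All 64 genes called on average had the same sign at all 3 times, as 37.5% of all genes did. The 64 were called from the mean of these same differences, so their agreement follows in part from that choice. The median of the ATF4 list was 0.21 at 10 h, 0.18 at 24 h and 0.23 at 48 h. No difference between times was thus detected.

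The active compound, which carries a hydroperoxy group on the ring that the prodrug lacks, was compared at the 3 matched times over all 32 arrays. Its experiment had other vehicle arrays, so the compounds shared no controls, but compound and experiment cannot be told apart, and the doses may differ. The arrays of the active experiment were also brighter. Their upper-quartile raw intensities were 430.9 to 655.5, against 274.6 to 416.2 in the cyclophosphamide experiment. Whether this bears on the size of the differences was not tested. There was 1 pair of compounds in 4 comparisons, the average and the 3 times, each adjusted over the genes tested. The effects differed for 320 of 10598 genes on average (3.02%), for 79 at 10 h (0.745%), for 31 at 24 h (0.293%) and for 157 at 48 h (1.48%). Of the 320, 43.8% were higher under cyclophosphamide than under the active compound relative to vehicle, and of the 123 found with median scaling 15.4% were. The active compound changed 787 genes on average in the same fit (7.43%). Across 10310 genes tested in both fits the average changes of the compounds correlated with r = 0.197, a description across genes, which are not independent.

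Of the 64 genes called under cyclophosphamide, 43 had the same sign under the active compound (67.2%, against 55.1% of all genes), 23 were called in the same direction under both and 7 in opposite directions. The difference between compounds passed for 22 of the 64. The rise of ASNS was shared: it was 0.71 under cyclophosphamide and 0.51 under the active compound in the 32-array fit, a difference of 0.20 (95% interval -0.01 to 0.41, adjusted p = 0.315). By time, however, ASNS was at 0.90, 0.52 and 0.71 under cyclophosphamide and -0.27, 0.87 and 0.92 under the active compound at 10, 24 and 48 h. At 10 h the compounds differed by 1.18 (adjusted p = 0.000575). For TRIB3 the average difference was -0.13 (95% interval -0.33 to 0.08, adjusted p = 0.564), for DDIT4 -0.16 (95% interval -0.41 to 0.09, adjusted p = 0.563) and for DDIT3 -0.26 (95% interval -0.44 to -0.09, adjusted p = 0.0836), none of which passed, and the intervals allow differences of up to 0.44 in size. DDIT4 was at 0.62 under cyclophosphamide and 1.59 under the active compound at 24 h, where the difference passed (adjusted p = 0.0255). GDF15 rose on average by 0.63 under cyclophosphamide and 1.19 under the active compound, a difference of -0.56 (95% interval -0.81 to -0.31, adjusted p = 0.0111). By time GDF15 was at 0.78, 0.46 and 0.64 under cyclophosphamide and 0.15, 1.55 and 1.86 under the active compound. The difference of GDF15 was 0.63 at 10 h and did not pass (adjusted p = 0.178). At 24 and 48 h it passed, at -1.09 (adjusted p = 0.0105) and -1.23 (adjusted p = 0.00312). Of the 33 measured ATF4 list members, 24 rose under the active compound on average, with a median of 0.34. Of the 10310 genes tested in both fits, 377 rose under the active compound, with a median of -0.003 over all. The list was drawn up with earlier results of these data known.

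The 7 genes called in opposite directions were ID1, ANG and SOX21, higher under cyclophosphamide, and CXCL6, CXCL1, SCG5 and LPXN, lower. ID1 was at 0.47 under cyclophosphamide and -0.20 under the active compound, a difference of 0.67 (95% interval 0.50 to 0.85, adjusted p = 2.43e-05). MT2A differed by 0.51 (95% interval 0.37 to 0.65, adjusted p = 4.81e-05) and the transcription factor gene SOX21 by 0.82 (adjusted p = 1.06e-06), both higher under cyclophosphamide. CXCL6 was at -0.47 and 0.48, a difference of -0.94 (95% interval -1.12 to -0.77, adjusted p = 7.13e-08). CXCL1 at -0.34 and 0.39, and SCG5 at -0.40 and 0.67, did likewise. The differences were -0.73 and -1.07 (adjusted p = 0.000511 and 6.69e-08). On average both chemokines and SCG5 thus fell under the prodrug and rose under the active compound. At 10 h, however, the active compound's values were -0.03 for CXCL6, -0.36 for CXCL1 and 0.13 for SCG5. The difference between compounds at 10 h passed for CXCL6 (adjusted p = 0.0476) but not for CXCL1 (adjusted p = 0.875) or SCG5 (adjusted p = 0.383).

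For 6 further genes that rose under the active compound, no change under cyclophosphamide passed. IL6, the inflammatory cytokine, was at 0.14 under cyclophosphamide and 1.88 under the active compound, HMOX1 at 0.14 and 1.52, and ATF3 at 0.12 and 1.07. IL24, a cytokine of the IL10 family, was at 0.14 and 1.11, CDKN1A, the cyclin-dependent kinase inhibitor p21, at 0.13 and 0.63, and the hair keratin KRT34 at -0.07 and 0.97. Each of these 6 differences passed, from -1.75 for IL6 to -0.50 for CDKN1A. The 5 largest differences in the other direction were those of SOX21, ID1, ANG, GPSM2 and PHACTR3. GPSM2, a spindle orientation protein, was at 0.03 under cyclophosphamide and -0.57 under the active compound.

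At single times, CENPA, PSRC1 and CCNB2, genes of mitosis, were -0.01, -0.17 and 0.02 under cyclophosphamide at 10 h and -0.99, -1.10 and -0.88 under the active compound. At 24 h the histone genes H2BC11 and H2BC5 were 0.01 and 0.02 against -0.74 and -0.69. These differences passed, with adjusted p from 0.000268 for CCNB2 to 0.00446 for H2BC11. At 48 h the active compound's values for H2BC11 and H2BC5 were of the other sign, 0.59 and 0.47, with 0.10 and 0.11 under cyclophosphamide, and those differences did not pass (adjusted p = 0.0761 and 0.22). At 48 h IL7R was -0.89 under cyclophosphamide and 0.12 under the active compound (adjusted p of the difference = 0.0009).

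**Figure D5:**
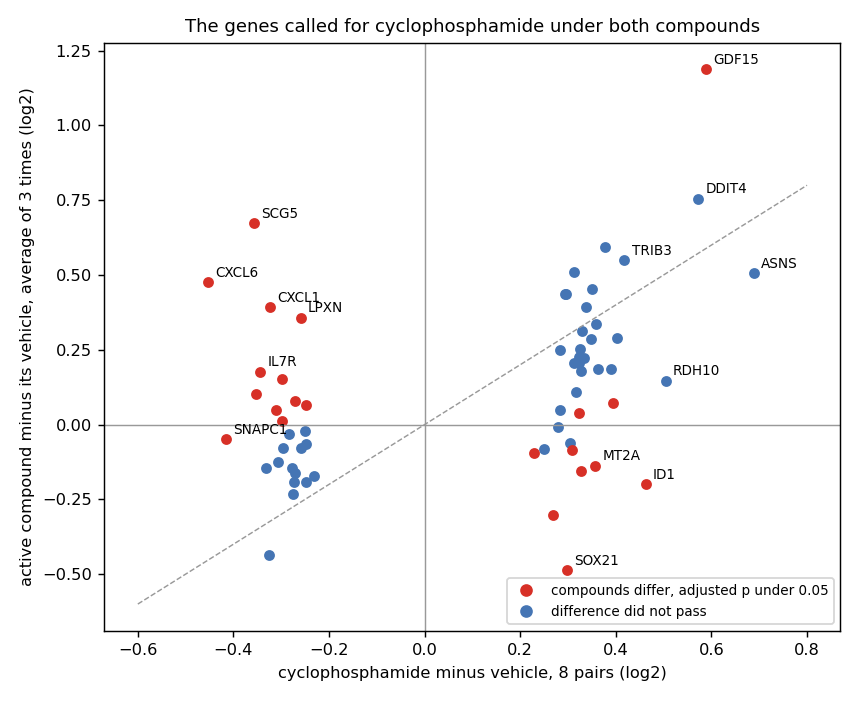
Average log2 change under cyclophosphamide (x axis, 16-array fit) and under the active compound (y axis, 32-array fit) for the 64 genes called under cyclophosphamide. Red points are the 22 genes for which the difference between compounds passed; CXCL6, CXCL1 and SCG5 lie at upper left, ID1 and SOX21 at lower right, and the dashed line marks equal changes.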

How the data were processed

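PC-3 RNA was measured on 32 Illumina bead arrays, of which the 16 of the cyclophosphamide experiment were normalized alone. The deposited table gives linear intensity per probe; BeadStudio and R 2.12.0 are named in the submitters' processing notes, and the sources used here do not state how background was handled. A second deposited table, the authors' log2 values (Spearman correlation with the intensities at least 0.999), has medians of 7.32 to 7.34 in this experiment and 7.43 to 7.44 in the other; its scale follows expression, its normalization is not stated, and it served as an alternative.

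Intensities were corrected with normexp (offset 50), quantile-normalized and taken to log2 (limma 3.58.1, R 4.3.3). Of 20589 probes, 18332 had 1 gene symbol in the platform annotation, 0 had several and 2257 stayed unnamed; 18315 matched a RefSeq table by Entrez identifier, which changed 0 symbols. The upper 60% of probes by mean were kept, with the brightest probe per gene. limma fitted pair and treatment (7 residual degrees of freedom), an effect per time (5), and, over 32 arrays and 10598 genes, the difference between compounds (15), with Benjamini-Hochberg adjustment at 5%. Scripts were tested on simulated data. The number of arrays limits the precision.

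Deviations from the group means correlated between partners at 0.171 to 0.720 in all 8 pairs (order of title letters within time; the 48 h pairs, 2 to a group, share 1 value). With the third pairs of 10 h and 24 h left out, the difference between the remaining 2 vehicle arrays correlated with that between their partners at 0.27, 0.42 and 0.47 at 10, 24 and 48 h, so the pairs were kept as blocks; the active arrays were not paired.

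Named are, on average, every gene called, with up to 15 each way in detail; by time and between times up to 5 called each way, or the 3 with the smallest p; between compounds up to 5 called each way and 9 stress and cytokine genes; and of 28 gene lists up to 4 members with the smallest p, or any member of the ATF4, tRNA synthetase, cyclophosphamide, metallothionein and BMP lists. IL1A, which this names at 24 h, was not among the genes tested on the 16 arrays. The members, lists and tests were chosen with earlier results of these data known. Alternatives were other background, scaling, probe and filter settings, array weights, no pairs, and leaving out pairs or arrays. Promoter windows are RefSeq sequence of GRCh38.p14. Of 9 androgen receptor and prostate markers, 5 were not analysed here.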

Additional observations from a re-analysis of the deposited data

Results flagged for a closer look

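Of 36 named genes examined, 5 had 1 pair difference far from the other 7 by Dixon's criterion, where chance marks about 1 gene in 20. GDF15 had 1.10 in the second pair at 10 h, with the nearest pair at 0.67. In the same pair MT2A had 0.70 (nearest 0.38) and ATF3 had 0.44 (nearest 0.14). ITGA2 had 1.06 in the third pair at 10 h (nearest 0.49), the pair whose cyclophosphamide array stood apart. NUP98 had 0.12 in the second pair at 24 h, where the nearest pair was at -0.23 and the other 7 were below 0.

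For 23 named genes the average effects of the compounds differed by the interaction contrast of limma (adjusted p under 0.05; cyclophosphamide minus active, log2). Higher under cyclophosphamide were SOX21 (0.82), ID1 (0.67), ANG (0.60), GPSM2 (0.60), PHACTR3 (0.54), MT2A (0.51) and FST (0.33). Lower under cyclophosphamide by over 0.9 were IL6 (-1.75), HMOX1 (-1.38), SCG5 (-1.07), KRT34 (-1.05), IL24 (-0.97), ATF3 (-0.95) and CXCL6 (-0.94). The other lower ones were CXCL1 (-0.73), IL7R (-0.67), GDF15 (-0.56), PNPT1 (-0.52), CDKN1A (-0.50), ABCA1 (-0.48), NUP98 (-0.45), SNAPC1 (-0.39) and NASP (-0.33). Compound and experiment cannot be told apart in these differences.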

How the results depend on the processing

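On average 64 genes passed. The count was 99 with no background correction, 12 with offset 16, 17 with median scaling, 26 with 32 arrays normalized together, 27 with no filter on dim probes, 132 with array weights, 19 with equal weight of the times and 30 without the pairs on the other time's side. It was 95 in the authors' log2 values, 61 of them shared. It was 0 with no replicate block, and leaving out 1 pair gave 14 to 109. At 10 h 4 genes passed, 2 with median scaling, 0 with no filter, 0 with no replicate block, 2 without the pairs on the other time's side, and 0 to 1 when 1 pair was left out. At 48 h, 0 to 1 passed when 1 pair was left out. At 24 h and between times the count was 0 in every setting tried. Between compounds 320 genes differed: 123 with median scaling, 174 with no filter, 22 with no replicate block, 129 with the active arrays paired by adjacent letters (replicate block), 91 with array weights by experiment, and 187 to 497 when 1 pair or array was left out (497 without the third pair at 10 h). No called gene reversed its direction in a setting tried, but all settings reused arrays from which the genes were called. Among single named genes and other counts, 6213 values under an alternative were unchanged, 813 lost the call, 56 gained it and 188 counts moved. Unchanged means a gene on the same side of the threshold, whatever the sign of an uncalled gene, or a count within 1.5 times. Counts that moved changed by over 1.5 times or to or from 0. Median scaling moved the median of all genes by 0.01 on average and 0.04 between compounds, in size. The cause of the lower counts was not tested, except that leaving out a pair removes 1 of 8 differences.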

Other observations

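Genes just inside the threshold were FKBP5 (-0.27) and HBP1 (0.23), both with an adjusted p of 0.0496 (limma), and just outside it were the chemokine receptor CXCR4 (-0.24) and the MAP kinase phosphatase DUSP5 (0.32), with 0.0516. The S100 protein gene S100P was at 0.45 on average (adjusted p = 0.0812), with 1.34 in the second pair at 10 h and 0.81 in the third at 24 h, against 0.06 to 0.44 in the other 6 pairs. Between compounds S100P differed by 1.10 at 10 h and by -1.48 at 48 h, and the average difference was -0.08. ITGB4, the hemidesmosome integrin chain and a marker of the line here, was at 0.35 (adjusted p = 0.0594) and caveolin CAV1 at -0.21 (adjusted p = 0.0734), each with the same sign in 8 of 8 pairs.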
